A study of Mus musculus with 12 samples.

Results

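The genes described here are 8 genes of B cells and of the antibody-secreting plasma cells that B cells become: Cd79a, Cd79b, Ms4a1, Pax5, Ighm, Ighg2c, Jchain and Mzb1. They were listed by name, each was found in the deposited expression table under 1 row, and they are 8 of the 24011 genes measured. The table covers 12 Affymetrix arrays of mouse liver sinusoidal endothelial cells (LSECs), the fenestrated and highly endocytic endothelium of the liver's capillaries. The 4 genotypes, with 3 arrays each, were wild type (WT), Stab1KO, Stab2KO and the double knockout of both genes (DKO). The 2 targeted genes, Stab1 and Stab2, code for the stabilins, scavenger receptors of LSECs. All mice were C57BL/6J and 3 to 4 months old, all cells were purified with CD146 beads from perfused liver, and no group received a treatment. Each array holds the RNA of a pool of 3 mice, which the labels call a biological replicate. The labels do not say how the alleles were made or whether mice of different genotypes were littermates.

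B cells recognise antigen through a membrane immunoglobulin whose signal is carried by the CD79A and CD79B chains. The transcription factor Pax5 holds B cells in their identity and is switched off when they become plasma cells, which secrete antibody instead of displaying it. Heavy chain class is set by the constant region gene in use: Ighm gives IgM, the class of naive B cells, and Ighg2c gives an IgG class of C57BL/6 mice that is reached by class switching. The liver's sinusoids hold B cells of the blood, and LSECs take up immune complexes from it.

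In these endothelial preparations the LSEC markers were high in every array: the mean of the 15 measured markers lay between 11.49 and 12.76 log2, where the median gene of an array lay at 5.11. Without Stab1 and Stab2, which are in that list, the mean of the other 13 lay between 12.46 and 12.77. The targeted genes followed the labels, Stab1 being at 4.98 to 5.45 in the 6 arrays that lack it and at 12.46 to 12.62 in the others, and Stab2 at 5.46 to 7.60 against 12.99 to 13.09. The array DKO replicate 3 stood apart. Its correlation with the other arrays across genes was 0.956 to 0.968, where all other pairs reached at least 0.987, and its mean over 14 neutrophil markers was 12.38 log2 against 5.80 to 7.23 in the other arrays. Calls that use the DKO arrays are therefore also given without it, as are some of the other DKO differences. In RNA of a whole preparation fewer cells of a type and less RNA per cell cannot be told apart. Array values have no absolute zero and probes differ in brightness, so differences are tested for 1 gene between arrays, not between genes. A place above or below the array median is given as a description only, and probe brightness enters it.

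Of the 8 genes, 3 have an entry in the searched part of the RefSeq promoter table of GRCm38.p6: Cd79a, Pax5 and Jchain. Each entry gives 250 bases before and 50 after the start site. The entries of a whole chromosome were left out before the search, so a gene without an entry here may still be in the full table. All 3 with an entry are printed, whatever their expression: Cd79a and Pax5 had their highest mean in Stab2KO, Jchain in DKO. Each runs from 5′ to 3′ on the gene's strand, and capitals mark matches to the E-box, CANNTG, the element bound by E proteins, which B cell development requires. The windows are chr7:24897247-24897546 on the plus strand for Cd79a, chr4:44710645-44710944 on the minus strand for Pax5 and chr5:88527848-88528147 on the minus strand for Jchain.
Cd79a: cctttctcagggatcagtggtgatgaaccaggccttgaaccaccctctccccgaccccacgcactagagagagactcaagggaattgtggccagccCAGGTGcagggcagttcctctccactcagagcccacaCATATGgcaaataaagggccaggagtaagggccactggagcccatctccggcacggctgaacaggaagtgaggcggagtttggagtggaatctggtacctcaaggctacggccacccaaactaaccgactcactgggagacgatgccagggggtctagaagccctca
Pax5: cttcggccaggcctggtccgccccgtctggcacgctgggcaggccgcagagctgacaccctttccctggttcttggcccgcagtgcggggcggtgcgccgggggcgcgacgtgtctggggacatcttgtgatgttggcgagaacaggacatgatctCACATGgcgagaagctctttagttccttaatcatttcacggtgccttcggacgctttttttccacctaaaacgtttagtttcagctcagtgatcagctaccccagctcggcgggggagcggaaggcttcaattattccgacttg
Jchain: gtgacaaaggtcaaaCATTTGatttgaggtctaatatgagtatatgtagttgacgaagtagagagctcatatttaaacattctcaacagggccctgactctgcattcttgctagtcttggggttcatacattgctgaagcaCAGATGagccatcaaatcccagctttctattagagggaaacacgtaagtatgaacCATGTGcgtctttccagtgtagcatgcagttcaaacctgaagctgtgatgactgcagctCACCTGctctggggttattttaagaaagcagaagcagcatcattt
Cd79a has 2 E-box matches, Pax5 has 1 and Jchain has 4. The motif is read the same on both strands, and 72.3% of the 32851 promoters searched hold at least 1. The octamer ATGCAAAT (searched on both strands), the element of immunoglobulin promoters bound by Oct factors, was in none of the 3 windows. It was in 1.74% of all promoters searched. A match or its lack describes these letters only.

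Among the 8 genes, those of the B cell surface and of B cell identity had their highest mean in Stab2KO. The means of Cd79a, Cd79b, Ms4a1 and Pax5 were each above WT in Stab2KO and each below WT in Stab1KO and in DKO, although Cd79a in DKO was above WT without DKO replicate 3 (0.10 ± 0.26, against -0.12 ± 0.26 with it). Of all differences between genotypes in these 4 genes, 1 passed the test, the lower Pax5 in DKO than in Stab2KO. Cd79a, a signalling chain of the B cell receptor, measured 6.91, 7.53 and 7.56 log2 in the WT arrays, 6.68, 6.31 and 7.20 in Stab1KO, 7.74, 7.45 and 7.84 in Stab2KO, and 7.34, 7.53 and 6.78 in DKO. All Stab2KO arrays were above all Stab1KO arrays, while WT and DKO overlapped both. Its partner chain Cd79b measured 6.34, 7.51 and 7.49 in WT, 6.88, 6.50 and 7.06 in Stab1KO, 7.92, 7.47 and 7.48 in Stab2KO, and 6.73, 6.99 and 6.69 in DKO. For Cd79b, WT replicate 1 was the lowest array of the 12, and the other WT arrays were above all Stab1KO and DKO arrays.

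Ms4a1, which encodes the B cell surface protein CD20, measured 5.79, 6.65 and 6.64 log2 in WT, 5.72, 5.63 and 6.31 in Stab1KO, 6.93, 7.00 and 6.34 in Stab2KO, and 6.08, 5.80 and 6.11 in DKO. Pax5 measured 5.01, 5.20 and 5.23 in WT, 4.96, 4.94 and 5.14 in Stab1KO, 5.68, 5.48 and 5.27 in Stab2KO, and 4.91, 5.16 and 4.79 in DKO. For Pax5 the 3 Stab2KO arrays were above all 9 others, and for Ms4a1 they were above all arrays of Stab1KO and DKO. Cd79a, Cd79b, Ms4a1 and Ighm were above the array median in 12 of 12 arrays, and Pax5 in 7. The order of the genotypes by mean, from low to high, was Stab1KO, DKO, WT and Stab2KO for Cd79a and Ms4a1, and DKO, Stab1KO, WT and Stab2KO for Cd79b and Pax5. Neighbours in this order overlapped, other than WT and Stab2KO for Pax5.

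**Figure D1:**
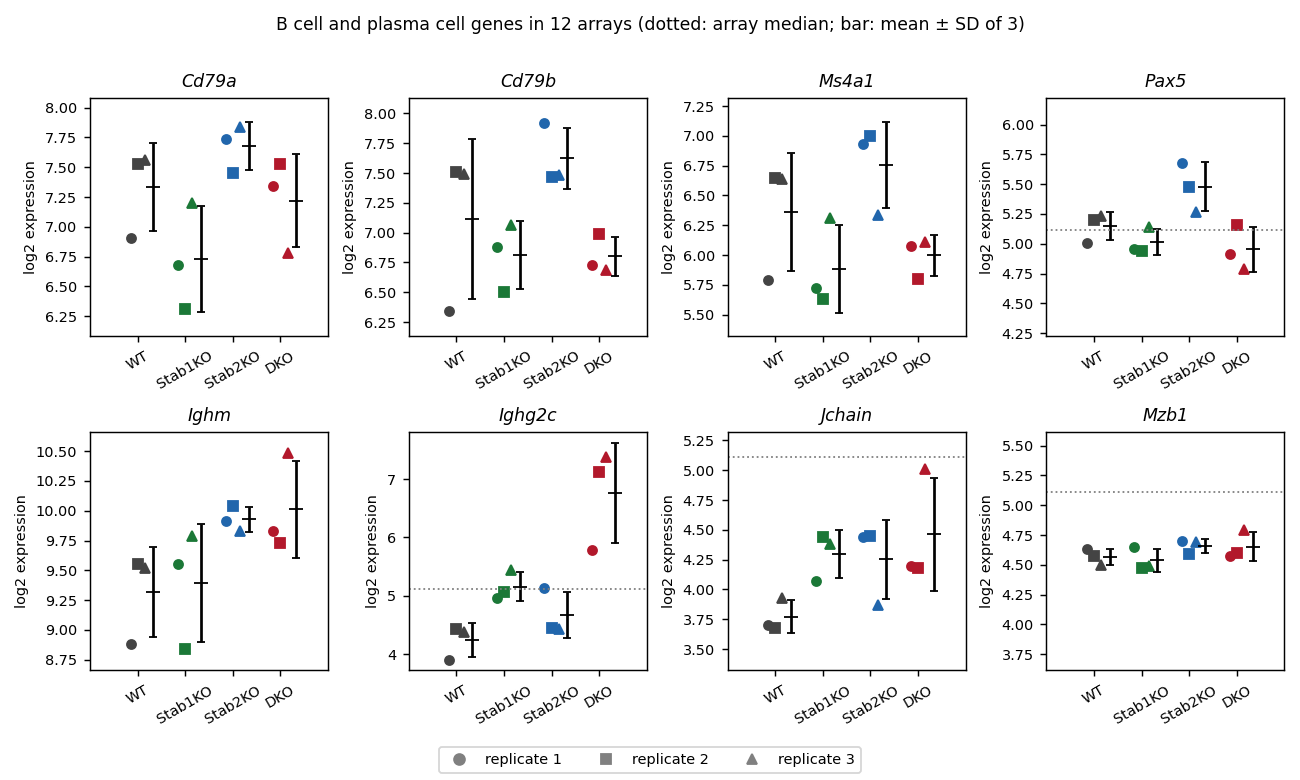
Log2 expression of the 8 genes in the 12 arrays, with 1 panel per gene, the genotypes on the horizontal axis, 1 symbol per replicate, the mean ± SD of 3 arrays as a bar and the array median of 5.11 as a dotted line where it falls in the range. Cd79a, Cd79b, Ms4a1 and Pax5 have their highest mean in Stab2KO, and Ighg2c in DKO is above all other arrays.

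Between the single knockouts, Stab1KO against Stab2KO, the B cell genes were lower in Stab1KO. The log2 difference was -0.95 ± 0.26 for Cd79a (SE, limma, adjusted p = 0.43), -0.81 ± 0.28 for Cd79b (adjusted p = 0.58), -0.87 ± 0.27 for Ms4a1 (adjusted p = 0.49) and -0.46 ± 0.13 for Pax5 (adjusted p = 0.42). None of the 8 genes was called, that is, had an adjusted p under 0.05 over the 24011 genes, where 0.108% of all genes were called. At an unadjusted p under 0.05 these 4 genes passed, all lower, and 4.07% of all genes did so in that direction. With Ighm, 5 of the 8 genes had all 3 Stab1KO arrays below all 3 Stab2KO arrays, as had 6.61% of all genes. The median difference of the 8 genes was -0.50 log2 and that of all genes -0.001. An exact permutation of the 6 arrays cannot give a two-sided p under 0.1, and it gave 0.1 for each of these 5 genes.

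Against WT, neither single knockout had a called member, and 0.308% of all genes were called in Stab1KO and 0.296% in Stab2KO. In Stab2KO all 8 differences were above 0, with a median of 0.41 log2 against 0.007 for all genes. Pax5 differed by 0.33 ± 0.13 (limma, adjusted p = 0.54, 95% interval 0.05 to 0.61) and Cd79b by 0.51 ± 0.28 (adjusted p = 0.75, interval -0.12 to 1.14). WT replicate 1 set much of these sizes: without it the difference was 0.12 ± 0.19 for Cd79b, 0.11 ± 0.24 for Ms4a1 (0.40 ± 0.27 with it), 0.13 ± 0.27 for Cd79a (0.34 ± 0.26 with it), 0.26 ± 0.14 for Pax5 and 0.39 ± 0.28 for Ighm. Pax5, Ighm and Ighg2c had no overlap with WT, as had 8.09% of all genes (and 7.63% of all genes with all Stab2KO arrays lower, none of them members), and 2 of 8 passed an unadjusted p under 0.05, against 7.62% of all genes. In Stab1KO the 8 differences had a median of -0.08 log2 against 0.005 for all genes. There Cd79a differed by -0.61 ± 0.26 (adjusted p = 1, interval -1.19 to -0.03). In Stab1KO 3 of 8 genes passed an unadjusted p under 0.05, Cd79a as lower and Ighg2c and Jchain as higher. Of all genes, 3.91% did so in either direction. Leaving out WT replicate 1 made the lower values of Cd79b and Ms4a1 larger in size. Cd79b was then -0.69 against WT in Stab1KO and -0.70 in DKO (-0.30 and -0.31 with that array). Ms4a1 was then -0.76 in Stab1KO and -0.65 in DKO (-0.48 and -0.37 with it). The 95% intervals given above hold differences of both small and moderate size, so they do not show the genotypes to be alike.

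In DKO against Stab2KO, Pax5 fell by 0.52 ± 0.13 log2 (limma, adjusted p = 0.0499), a call at the edge of the threshold, where 3.42% of all genes were called. Cd79b differed by -0.82 ± 0.28 (adjusted p = 0.15) and Ms4a1 by -0.76 ± 0.27 (adjusted p = 0.15), and for all 3 genes the arrays did not overlap, as for 13.8% of all genes in that direction. The Pax5 call was lost without DKO replicate 3 (-0.44 ± 0.13, adjusted p = 0.10), and also without DKO replicate 1 (adjusted p = 0.11), Stab2KO replicate 1 (0.16) or Stab2KO replicate 2 (0.15). In DKO against Stab1KO no member was called, where 0.945% of all genes were, and 2 of 8 (Ighg2c and Ighm) had an unadjusted p under 0.05, as had 16.2% of all genes. There Cd79b differed by -0.01 ± 0.28 and Pax5 by -0.06 ± 0.13, with 95% intervals of -0.64 to 0.62 and -0.34 to 0.22.

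**Figure D2:**
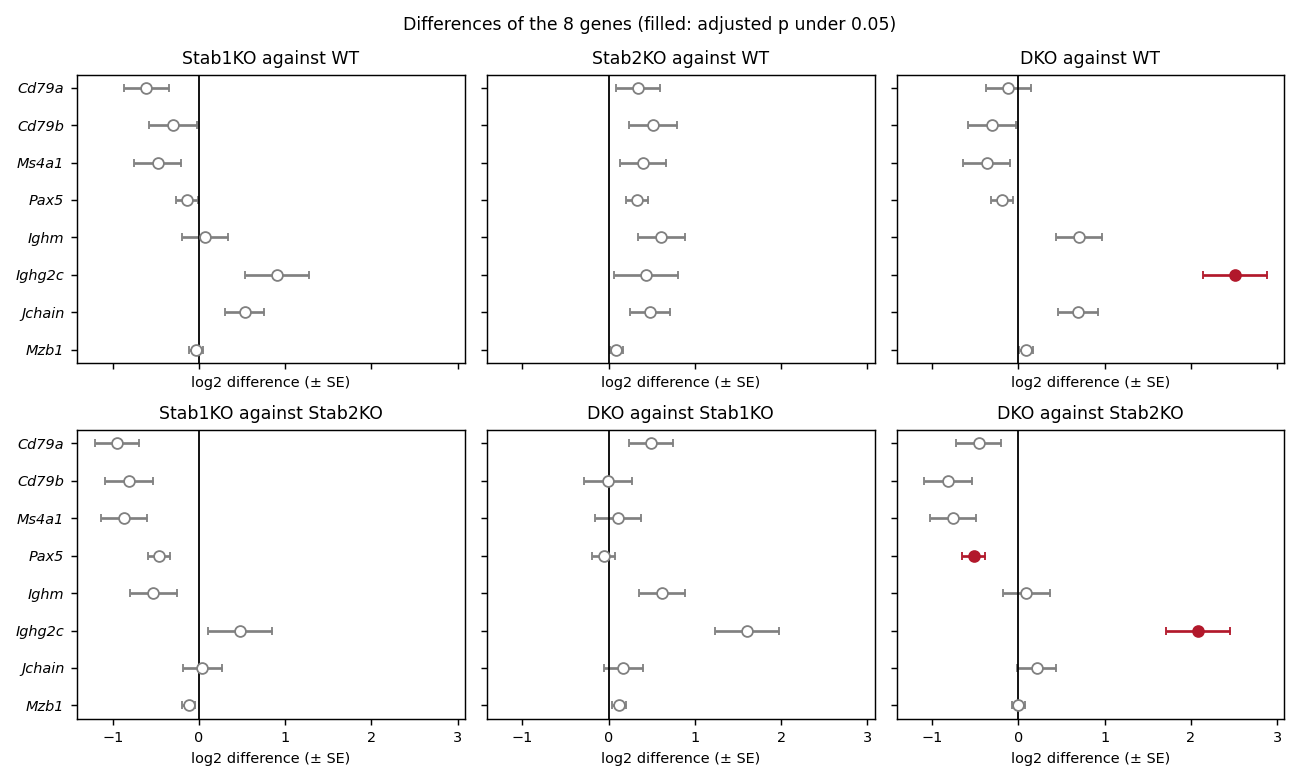
Log2 differences of the 8 genes in the 6 comparisons between genotypes, first named minus second named, as points with the moderated SE, with filled points for an adjusted p under 0.05. Filled points are Ighg2c in DKO against WT and against Stab2KO, and Pax5 in DKO against Stab2KO.

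Ighm had a mean above WT in both Stab2KO and DKO, where the means of Cd79b, Ms4a1 and Pax5 in DKO were below WT. Ighm, the constant region of IgM, measured 8.88, 9.55 and 9.52 log2 in WT, 9.55, 8.84 and 9.79 in Stab1KO, 9.91, 10.04 and 9.83 in Stab2KO, and 9.83, 9.73 and 10.48 in DKO. Stab2KO and DKO each lay above WT with no overlap. The difference from WT was 0.61 ± 0.27 in Stab2KO (limma, adjusted p = 0.65) and 0.70 ± 0.27 in DKO (adjusted p = 0.23), neither of them called, and both share the WT arrays. Without DKO replicate 3 the DKO difference was 0.47 ± 0.26. The order by mean was WT, Stab1KO, Stab2KO and DKO, with overlap between WT and Stab1KO and between Stab2KO and DKO.

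Ighg2c rose in DKO, and this was the largest change among the 8 genes. It measured 3.91, 4.43 and 4.39 log2 in WT, 4.96, 5.07 and 5.44 in Stab1KO, 5.13, 4.45 and 4.44 in Stab2KO, and 5.78, 7.12 and 7.38 in DKO. All 3 DKO arrays were above the 9 others, and above the array median, which only 2 other arrays (Stab1KO replicate 3 and Stab2KO replicate 1) exceeded. The mean went from 4.24 ± 0.29 in WT to 6.76 ± 0.86 in DKO (SD, n = 3), a difference of 2.51 ± 0.37 log2 or 5.71-fold (limma, adjusted p = 0.0081, 95% interval 1.71 to 3.32 log2). Of the 8 genes it alone was called in DKO against WT, where 1.8% of all genes were called and 0.754% as higher. Ighg2c also rose in DKO against Stab2KO, by 2.08 ± 0.37 (adjusted p = 0.021), and missed the threshold in DKO against Stab1KO, at 1.60 ± 0.37 (adjusted p = 0.072).

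The call against WT was made with and without DKO replicate 3. Without it, Ighg2c was 2.20 ± 0.36 log2 above WT (limma, adjusted p = 0.015) and 1.77 ± 0.36 above Stab2KO (adjusted p = 0.031). The neutrophil markers were above WT without DKO replicate 3 too: all 14 were above 0, with a median of 1.05 log2, and 1 of them, Lcn2, was called. Their mean was 6.77 and 7.23 in DKO replicates 1 and 2. It was 7.07 in Stab1KO replicate 2, 6.70 in Stab1KO replicate 3 and 6.76 in Stab2KO replicate 3, where Ighg2c measured 5.07, 5.44 and 4.44. In the other single-knockout arrays the mean was 5.86 to 5.92. The part of the neutrophil markers in the Ighg2c result was not tested. The difference from Stab1KO was called only without DKO replicate 1 (2.09 ± 0.24, adjusted p = 0.016), and that from Stab2KO was lost without Stab2KO replicate 1 (adjusted p = 0.054) or Stab2KO replicate 2 (0.087). With the 6 arrays of WT and DKO fitted alone, the difference of 2.51 had an adjusted p of 0.086. In the single knockouts Ighg2c differed from WT by 0.91 ± 0.37 in Stab1KO (adjusted p = 1) and 0.43 ± 0.37 in Stab2KO (adjusted p = 0.86). The departure from additivity, the effect of losing Stab1 in mice with Stab2 minus that in mice without it, was -1.17 ± 0.52 for Ighg2c (limma, unadjusted p = 0.046, adjusted p = 0.39), or -0.86 ± 0.48 without DKO replicate 3. No member was called in that contrast, in which 0.05% of all genes were, and Ighg2c was the 1 of 8 with an unadjusted p under 0.05, as had 12.5% of all genes.

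**Figure D3:**
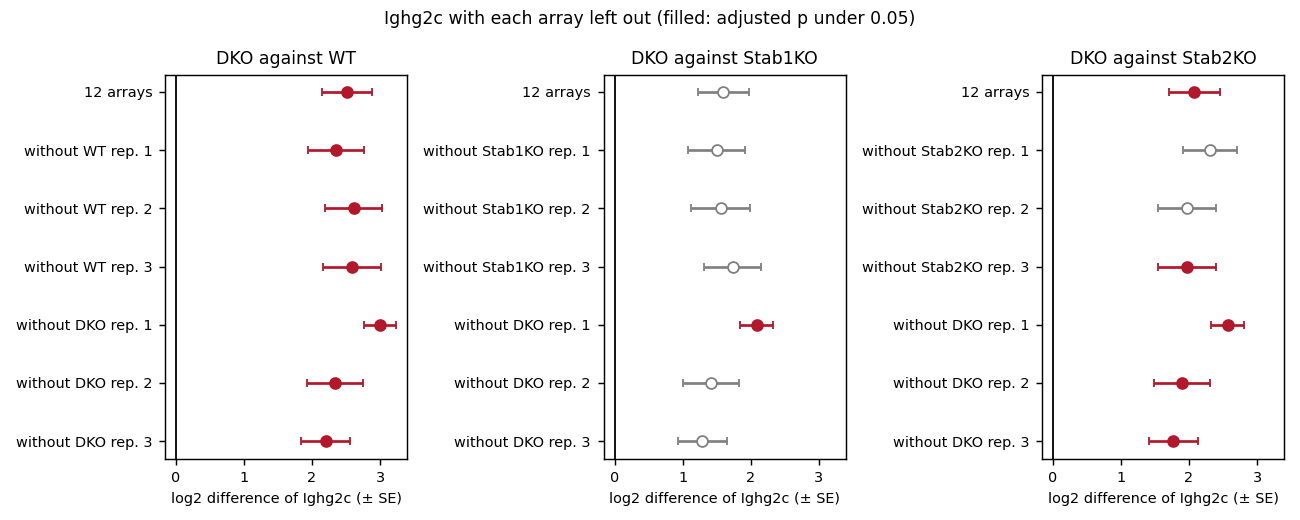
Log2 difference of Ighg2c in DKO against each other genotype, with all 12 arrays and with each array of the compared genotypes left out, as points with the moderated SE and filled points for an adjusted p under 0.05. Against WT all 7 fits are filled and lie between 2.20 and 3.00.

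The genes of antibody secretion among the 8, Jchain and Mzb1, were not called in any comparison. Jchain, which encodes the chain that joins IgM and IgA into polymers, measured 3.70, 3.68 and 3.93 log2 in WT, 4.07, 4.44 and 4.38 in Stab1KO, 4.44, 4.45 and 3.87 in Stab2KO, and 4.20, 4.18 and 5.01 in DKO. Every array was below the array median, and all Stab1KO and DKO arrays were above all WT arrays. In Stab1KO, Jchain and Ighg2c were the 2 members higher than WT with no overlap, as were 5.36% of all genes. The difference from WT was 0.53 ± 0.23 in Stab1KO (limma, adjusted p = 1) and 0.69 ± 0.23 in DKO (adjusted p = 0.16), the latter being 0.42 ± 0.18 without DKO replicate 3. In DKO against WT, Ighg2c, Ighm and Jchain were the 3 genes with no overlap and higher values, as were 8.97% of all genes. Mzb1, a chaperone of the endoplasmic reticulum that assists antibody assembly, measured 4.63, 4.57 and 4.50 in WT, 4.65, 4.47 and 4.49 in Stab1KO, 4.70, 4.59 and 4.69 in Stab2KO, and 4.57, 4.60 and 4.79 in DKO. Its 12 values spanned 0.32 log2, all below the array median, and no comparison between genotypes exceeded 0.12 ± 0.08 in size.

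Among the other immunoglobulin constant region genes, those of IgG2b and IgG1 were high in 1 DKO array, and the kappa light chain had, as Ighm had, no overlap with WT in Stab2KO and in DKO. Igkc, the kappa constant region, measured 9.62, 10.22 and 10.24 log2 in WT, 10.24, 9.68 and 10.72 in Stab1KO, 10.93, 10.95 and 10.94 in Stab2KO, and 10.64, 10.76 and 11.42 in DKO. Its differences from WT were 0.91 ± 0.27 in Stab2KO (limma, adjusted p = 0.40) and 0.91 ± 0.27 in DKO (adjusted p = 0.13), with no overlap in either, and 0.67 ± 0.26 in DKO without DKO replicate 3. Igha, the constant region of the mucosal class IgA, measured 6.61, 6.29 and 5.88 in WT, 6.96, 6.50 and 7.05 in Stab1KO, 7.66, 7.25 and 7.61 in Stab2KO, and 5.60, 6.67 and 7.18 in DKO. Igha was 1.25 ± 0.34 above WT in Stab2KO with no overlap (adjusted p = 0.32). In DKO it was 1.02 log2 below Stab2KO (-1.02 ± 0.34, adjusted p = 0.14), a difference that was called without DKO replicate 3 (-1.37 ± 0.31, adjusted p = 0.042).

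Ighg2b measured 4.01, 4.33 and 4.27 log2 in WT, 5.14, 4.95 and 5.22 in Stab1KO, 4.63, 5.67 and 4.88 in Stab2KO, and 5.16, 4.87 and 8.05 in DKO. Each knockout array was above each WT array. Ighg1 was between 3.65 and 4.58 in 11 arrays and 7.27 in DKO replicate 3. For both genes the high value was that of the array with the high neutrophil mean, and the part of that in the result was not tested. Ighg2b differed from WT by 1.82 ± 0.66 in DKO (limma, adjusted p = 0.20) and by 0.81 ± 0.25 without that array (adjusted p = 0.16). Ighe and Ighg3 stayed between 3.57 and 4.41 in all arrays. Of the 8 measured constant region genes, all were above 0 in DKO against WT with a median of 0.80 log2, against -0.023 for all genes. Without DKO replicate 3, 6 of 8 were above 0 with a median of 0.35. In DKO against WT 1 of the 8 was called, where 1.8% of all genes were.

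**Figure D4:**
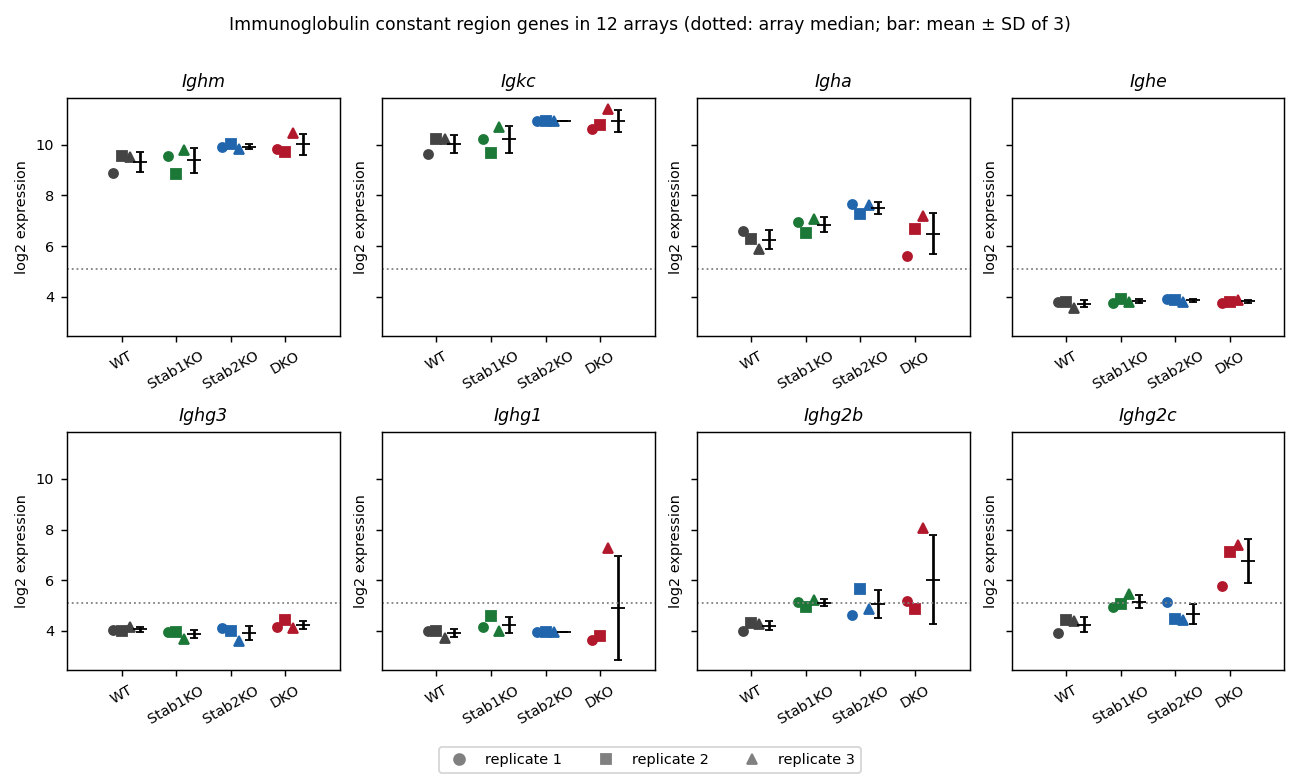
Log2 expression of the 8 measured immunoglobulin constant region genes in the 12 arrays on 1 shared scale, with the mean ± SD of 3 arrays as a bar and the array median of 5.11 as a dotted line. Ighg2c is high in all 3 DKO arrays, whereas Ighg1 and Ighg2b are high in DKO replicate 3, at 7.27 and 8.05.

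The wider B cell genes gave few calls. Of 23 further genes of the B cell surface and of receptor signalling, 21 were measured. In Stab1KO against Stab2KO none was called, 7 had an unadjusted p under 0.05, all lower (4.07% of all genes), 16 were below 0, and 10 had no overlap and lower values (6.61% of all genes), with a median of -0.21 log2. In Stab2KO against WT none was called, and 4 had an unadjusted p under 0.05, all higher (4.37% of all genes). There 12 were above 0 and 9 below, with a median of 0.10. The 1 call among the 21 was H2-Oa, which encodes the alpha chain of the class II modulator H2-O of B cells. The call was in DKO against Stab2KO, where 3.42% of all genes were called. H2-Oa measured 5.21, 5.23 and 5.50 in WT, 5.41, 5.24 and 5.57 in Stab1KO, 6.04, 5.90 and 5.81 in Stab2KO, and 5.29, 5.31 and 5.45 in DKO. It fell in DKO against Stab2KO by 0.57 ± 0.11 (limma, adjusted p = 0.029, and 0.030 without DKO replicate 3), and in Stab2KO it was 0.60 ± 0.11 above WT (adjusted p = 0.068). Its 3 Stab2KO arrays were above the 9 others, as for Pax5.

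Of 11 further transcription regulators of B cells, 1 was called: Bcl6, a repressor of germinal centre B cells that other cells also use. The call was in DKO against Stab2KO, where 3.42% of all genes were called. Bcl6 measured 7.91, 8.49 and 7.84 log2 in WT, 8.09, 8.57 and 7.90 in Stab1KO, 7.63, 7.79 and 7.86 in Stab2KO, and 8.68, 8.84 and 9.99 in DKO, and it rose in DKO against Stab2KO by 1.41 ± 0.32 (limma, adjusted p = 0.041). Without DKO replicate 3 that was 1.00 ± 0.22 (adjusted p = 0.039). Of 9 measured genes of B cell precursors none was called in any contrast. Sox4, a transcription factor needed by B cell precursors, differed most, at 0.85 ± 0.20 in DKO against WT (limma, adjusted p = 0.066, and 0.11 without DKO replicate 3), and Il7r, the receptor of the precursor cytokine interleukin-7, by -0.36 ± 0.22 (adjusted p = 0.44).

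Of 18 further plasma cell genes, Sdc1 alone was called, in Stab2KO and in DKO against WT. In these contrasts 0.296% and 1.8% of all genes were called. Sdc1 encodes syndecan-1, a plasma cell surface marker that epithelial cells also carry. It measured 7.68, 7.17 and 7.39 log2 in WT, 8.02, 7.82 and 7.93 in Stab1KO, 8.39, 8.35 and 8.48 in Stab2KO, and 8.47, 8.24 and 8.26 in DKO. All 9 knockout arrays were above the WT arrays. Sdc1 rose by 0.99 ± 0.12 in Stab2KO (limma, adjusted p = 0.0090) and by 0.91 ± 0.12 in DKO (adjusted p = 0.0054, and 0.0098 without DKO replicate 3), and differed by 0.51 ± 0.12 in Stab1KO (adjusted p = 0.36). Over the 18 genes the median difference was 0.08 in Stab2KO and 0.10 in DKO, and in DKO 11 were above 0. Without DKO replicate 3 the median in DKO was 0.006, with 9 above 0 and 2 called, Sdc1 and Ly6c2. The shares of all genes given above are those of the fit with all arrays, not of this fit.

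Among 10 measured ligands that attract B cells or keep them alive, Cxcl12 fell in all 3 knockouts. Of all genes, 0.308% were called against WT in Stab1KO, 0.296% in Stab2KO and 1.8% in DKO. Cxcl12 encodes the chemokine that retains B cell precursors and plasma cells in bone marrow. It measured 9.32, 9.77 and 9.45 log2 in WT, 7.36, 6.59 and 7.31 in Stab1KO, 7.89, 7.88 and 7.67 in Stab2KO, and 7.14, 6.89 and 6.93 in DKO. It fell by 2.42 ± 0.19 in Stab1KO (limma, adjusted p = 0.00033), fell by 1.70 ± 0.19 in Stab2KO (adjusted p = 0.0063) and fell by 2.52 ± 0.19 in DKO (adjusted p = 0.00012, and 0.00067 without DKO replicate 3). In DKO it was also lower than in Stab2KO, by 0.82 ± 0.19 (-0.82, adjusted p = 0.046), a call lost without DKO replicate 3 (adjusted p = 0.080). Of 10 receptors that bind or carry immunoglobulin, Fcgrt alone was called, the neonatal Fc receptor that returns IgG from endosomes to the blood. It measured 13.10, 13.15 and 13.02 in WT, 12.99, 13.07 and 13.07 in Stab1KO, 13.09, 13.13 and 13.13 in Stab2KO, and 12.81, 12.83 and 12.64 in DKO. In DKO Fcgrt fell by 0.33 ± 0.07 against WT (adjusted p = 0.048, and 0.098 without DKO replicate 3) and by 0.36 ± 0.07 against Stab2KO (0.031, and 0.055 without it). In these contrasts 1.8% and 3.42% of all genes were called.

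Markers of other cell types were read in the same arrays, and none of the Kupffer, natural killer, T cell, plasmacytoid dendritic, erythroid, hepatocyte and neutrophil markers was called with all 12 arrays. In Stab2KO the mean of 12 Kupffer cell markers ranged from 7.38 to 7.80 log2 against 7.73 to 9.72 in WT, with all 12 below 0 in the difference. The mean of 11 natural killer cell markers ranged from 6.27 to 6.96 in Stab2KO, 5.45 to 6.60 in WT, 5.50 to 6.39 in Stab1KO and 6.06 to 6.87 in DKO, with all 11 above 0 in Stab2KO against WT and a median of 0.66. The mean of 11 T cell markers ranged from 5.18 to 5.64 over all arrays, that of 9 plasmacytoid dendritic cell markers from 6.64 to 7.10, that of 5 erythroid markers from 4.49 to 5.59 and that of 10 hepatocyte markers from 7.88 to 9.23. Their part in the B cell values was not tested. WT replicate 1 had the lowest mean of the WT arrays for the 4 genes Cd79a, Cd79b, Ms4a1 and Pax5 (6.01 against 6.73 and 6.73), and also for the Kupffer (7.73), natural killer (5.45), T cell (5.18) and hepatocyte (8.07) markers. Stab1KO replicate 2 was among the 2 lowest arrays for 4 of the 5 genes Cd79a, Cd79b, Ms4a1, Pax5 and Ighm, and Stab2KO replicate 1 among the 2 highest for 4 of 5.

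The genes with the largest changes against WT in these lists, not called with all 12 arrays, were as follows. Of the Kupffer markers, Vsig4, a complement receptor, was at -1.83 ± 0.59 in Stab2KO, and C1qc, a chain of complement C1q, at -1.57 ± 0.46. Of the natural killer markers, Gzma, a granule protease, was at 1.28 ± 0.59 and Ncr1, an activating receptor, at 1.07 ± 0.48 in Stab2KO. Of the neutrophil markers, Retnlg, a resistin-like protein, was at 3.76 ± 1.35 in DKO and Ngp, a granule protein, at 3.50 ± 1.55. Without DKO replicate 3 these were 1.84 ± 0.76 and 1.02 ± 0.39. Of the T cell markers, Trbc1, a T cell receptor constant region, was at 0.55 ± 0.30 in DKO and Cd4, a coreceptor, at 0.52 ± 0.14 in Stab1KO. Irf7, a regulator of interferon genes, was at 0.66 ± 0.22 in DKO, and without DKO replicate 3 it was called in DKO against Stab2KO (1.01 ± 0.20, limma, adjusted p = 0.031). Lair1, an inhibitory receptor, was at -0.78 ± 0.41 in Stab2KO. Hamp, the hepatocyte iron hormone hepcidin, was at 2.60 ± 0.46 in Stab2KO (limma, adjusted p = 0.056), and Fabp1, a fatty acid binding protein, at -1.26 ± 0.55 in DKO, or -0.62 ± 0.44 without DKO replicate 3. The erythroid genes Hbb-bt, a globin, and Alas2, of haem synthesis, were at -1.48 ± 0.56 and -1.19 ± 0.30 in DKO.

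**Figure D5:**
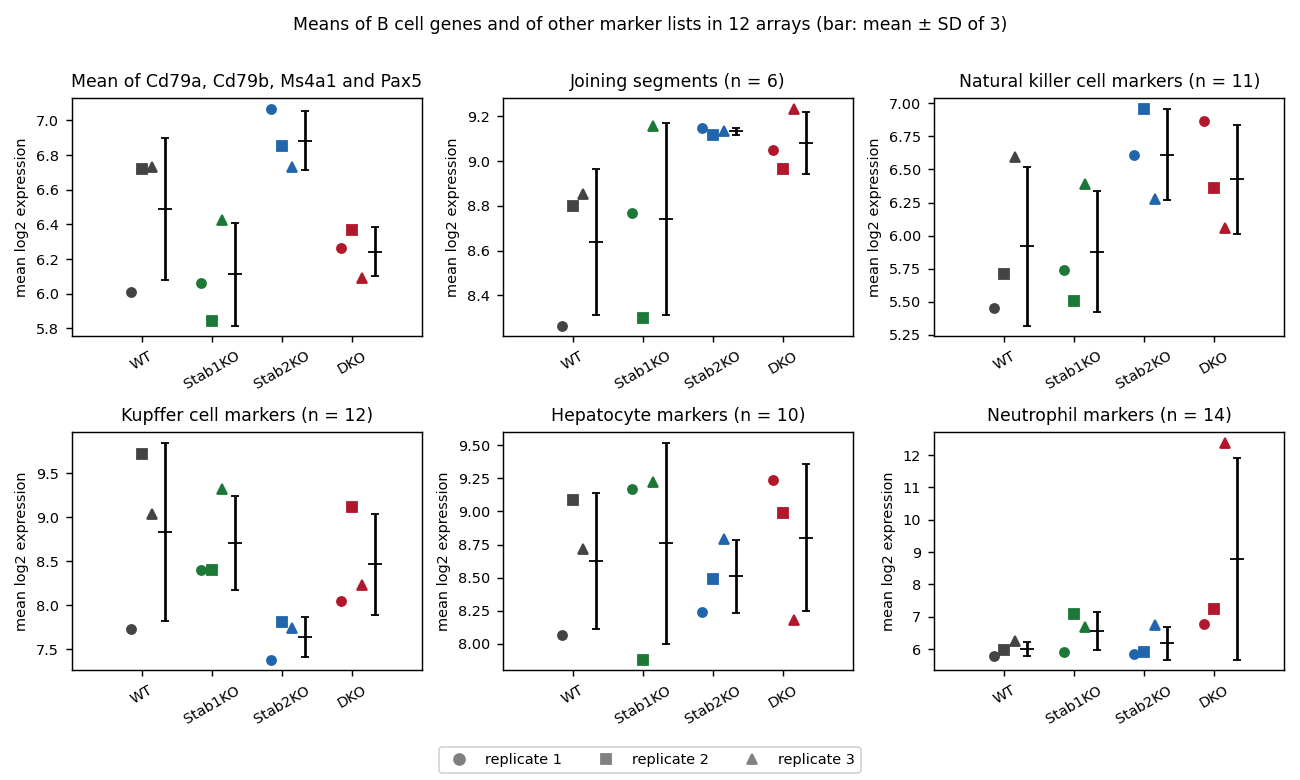
Mean log2 expression of Cd79a, Cd79b, Ms4a1 and Pax5, of the joining segments of the immunoglobulin genes and of 4 marker lists in the 12 arrays, with the mean ± SD of 3 arrays as a bar. The neutrophil mean of DKO replicate 3, at 12.38, lies far above all other arrays, and the Kupffer mean is lowest in Stab2KO.

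The genes whose values over the 12 arrays were most like each member's are given by Pearson's r, as a description: the arrays share 1 normalization, and the genotype means enter r. Ighm was most like Igkc (r = 0.97), Ighj3 (0.97) and Ighj4 (0.95), the kappa constant region and joining segments of the heavy chain locus that Ighm belongs to. Ighg2c was most like Retnla (0.96), which encodes a secreted resistin-like protein, Asxl1 (0.93) and Morc1 (0.93). Jchain was most like Igkv4-57-1 (0.92), a kappa variable segment, Mvd (0.89) and Gm21411 (0.89). Cd79a was most like Zfp503 (0.89), Wdhd1 (0.86) and Fcmr (0.86), the last being the IgM receptor of B cells. Cd79b was most like Hells (0.89), 4930428G15Rik (0.87) and Pax5 (0.87), and Ms4a1 was most like 4930428G15Rik (0.95), Olfr1501 (0.87) and Gm13481 (0.87). Pax5 was most like Mrpl58 (0.95), Hscb (0.93) and Bcs1l (0.92), all of them genes of mitochondrial proteins. Mzb1, whose values hardly varied, was most like Fbxw24 (0.91), Olfr1141 (0.89) and Vmn1r45 (0.88).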

How the data were processed

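The deposited table gives log2 expression for each gene identifier in each array. Per the submitters' processing notes it was made with RMA, a method that includes background correction, quantile normalization and a summary over a gene's probes. Sources used here give neither its version nor a genome build. Detection calls were not used, so how much of a low value is background is unknown. Precision is limited by having 3 pools per genotype.

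Rows were named through the platform annotation: 24015 of 24973 rows had 1 symbol, 958 were unnamed, and 4 lower-mean rows of a symbol were left out. limma 3.58.1 in R 4.3.3 fitted 4 group means to the 12 arrays, with eBayes without trend and Benjamini-Hochberg adjustment over 24011 genes in each of 7 contrasts. The call was an adjusted p under 0.05, and all adjusted p-values are limma's. Shares of all genes called are those of the fit to all 12 arrays, also where a call without an array is given. Intervals are 95% and use the moderated SE. On simulated arrays for DKO against WT, 43% of genes changed by 0.5 log2, 87% by 1 and 100% by 2 were recovered over 24011 genes, with 8 false among 161 calls. The simulated noise was normal and independent between arrays, without an outlying array, and the changed genes were drawn at random. These shares are therefore not the power for the genes described here.

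The members and lists (172 of 184 different list genes were measured) were chosen with earlier results of these data known. The lists of variable and joining segments were formed by symbol after the data were seen. Genes named were the 8 members, all measured constant region genes, up to 4 called genes of each other list or the 2 with the largest change against WT where none was called, and the 3 genes most like each member. Lcn2 and Ly6c2 were named after their values were seen. As alternatives the model was run with a replicate block, with a filter on low signal (genes above the 40th percentile), with array weights, with trend and robust eBayes, after median centring and quantile normalization, on every row, at a minimum log2 difference of 1, on only those arrays that a contrast compares, and leaving out each array. The data had been seen when list counts and values of non-members without DKO replicate 3, and the LSEC mean without Stab1 and Stab2, were added.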

Additional observations from a re-analysis of the deposited data

How the results depend on the processing

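Of 761 differences of single members under an alternative, 745 counted as unchanged. These kept direction and side of the threshold, or changed sign without a call by less than the SE of the main fit. A shift that kept its sign and side of the threshold counted as unchanged whatever its size. Of the others, 12 lost a call, 1 gained a call, 3 changed sign without a call by at least that SE, and 0 reversed with a call. Most of the 761 had no call to lose, so the 745 says little about the calls. The Pax5 call in DKO against Stab2KO was lost in 4 of 6 fits with an array left out and in 4 of 7 others. For Ighg2c these counts were 2 of 6 and 1 of 7 against Stab2KO, and 0 of 6 and 1 of 7 against WT. In DKO against WT the 1 called member, Ighg2c, held under every alternative except the fit of only the arrays compared, which called 0, and 1 was called with any array left out. In DKO against Stab1KO 0 members were called, and 0 to 1 with an array left out. In DKO against Stab2KO 2 were called, 1 with the replicate block, 1 with trend and robust options, 1 with every row tested, 1 at a minimum log2 difference of 1, 0 with only the arrays compared, and 0 to 2 with an array left out; in the first 3 of these Pax5 was lost, at adjusted p of 0.073, 0.076 and 0.051. Jchain fell under the filter on low signal and has no value there. In the other 4 contrasts 0 members were called under every alternative run.

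Deviations of the 18 same-numbered pairs of arrays correlated at a median of 0.055 (-0.064 to 0.291), with 4 over 0.1. The 36 pairs with different numbers had a median of -0.038 (-0.274 to 0.213), with 5 over 0.1. Whether the replicate numbers mark something the samples share was not tested. Apart from the loss of the Pax5 call in DKO against Stab2KO, the replicate block changed no call of a member.

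Counts over all genes moved more. Array weights gave 1111 calls for 432 in DKO against WT, 1789 for 822 in DKO against Stab2KO, 466 for 227 in DKO against Stab1KO, 148 for 71 in Stab2KO against WT and 41 for 26 between the single knockouts. Only the arrays compared gave 97, 4, 18, 29 and 15, and a minimum log2 difference of 1 gave 151, 143, 86, 42 and 17. For the 12 departures from additivity the block gave 6, the low-signal filter 28, trend and robust options 35 and array weights 199. With an array left out the calls were 125 to 424 in DKO against WT, 45 to 854 in DKO against Stab2KO (45 without Stab2KO replicate 2), 22 to 357 in DKO against Stab1KO (22 without Stab1KO replicate 2), 46 to 68 in Stab1KO against WT (74 with all arrays), 33 to 61 in Stab2KO against WT, 12 to 24 between the single knockouts, and 3 to 112 in the departure. The cause was not tested. How much of the signal of low genes such as Jchain is background is unknown.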

Other observations

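The variable and joining segments of the immunoglobulin genes, grouped by symbol after the data were seen, gave no call in any comparison named here and are described by counts. In Stab2KO against WT, 76 of 94 heavy chain variable segments were above 0 with a median of 0.18 log2, 22 had all Stab2KO arrays above all WT arrays and 0 had them all below. Of 102 kappa variable segments, 80 were above 0 with a median of 0.08, and 17 had no overlap and higher values. The shares over all genes were 8.09% higher and 7.63% lower, with a median of 0.007. In Stab1KO against WT the heavy and kappa medians were both 0.008, with 50 of 94 and 56 of 102 above 0. In Stab1KO against Stab2KO, 76 of 94 heavy and 75 of 102 kappa segments were below 0. Segments of 1 family are similar in sequence and can share signal, so they are not independent.

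The 6 joining segments had a mean of 8.27, 8.80 and 8.85 log2 in the WT arrays and 9.15, 9.12 and 9.13 in the Stab2KO arrays. All 6 were above 0 in Stab2KO against WT, with a median of 0.44, and all 6 in DKO against WT, with a median of 0.46 and 0.40 without DKO replicate 3.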
